A study of Mus musculus with 4 samples.

Results

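The 7 genes described here encode the platelet-derived growth factors (PDGF) and their receptors in mouse: the receptor genes Pdgfra and Pdgfrb, the receptor-like gene Pdgfrl, and the ligand genes Pdgfa, Pdgfb, Pdgfc and Pdgfd. They were taken as every probe set whose gene symbol on the array's annotation is one of these names, which gave 15 probe sets of 45037 other than controls. The family was selected on earlier results of the same knockout comparison, in which Pdgfra had read lower, so the genotype differences of its genes are given as a description, with no test of their own. All 7 genes had at least 1 probe set in the brighter 50% of probe sets, as did 10714 of 18193 genes in all. Of the 15 probe sets, 12 lay there.

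Each of 4 Affymetrix arrays measured messenger RNA of immortalised MEFs (mouse embryonic fibroblasts) in which both copies of the PA1 gene were flanked by loxP sites. The PA1 -/- cells (2 arrays) had been infected with a retrovirus expressing Cre recombinase, an enzyme that cuts out loxP-flanked DNA, and the PA1 +/+ cells (2 arrays) with the empty retroviral vector. All cells came from the loxP-flanked line, went through puromycin selection and grew in medium with fetal bovine serum, and the question was which genes PA1 regulates. The labels number the arrays of each genotype 1 and 2 and do not say whether the numbers are separate infections or cultures, so a p-value reflects no more than the spread among these arrays, part of which may be technical.

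PDGFs are secreted dimers that bind receptor tyrosine kinases on the surface of mesenchymal cells such as fibroblasts, pericytes and smooth muscle cells. Ligand binding pairs the receptors, which then phosphorylate one another and recruit adaptors, lipid kinases and phospholipases that drive division and migration. PDGF-A and PDGF-C act mainly through the alpha receptor, PDGF-D mainly through the beta receptor, and PDGF-B through both. PDGF takes its name from platelets, and serum is a classical source of it.

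Pagr1a, read here as the PA1 gene, was 11.4-fold lower in the PA1 -/- arrays (1365 ± 34.4 against 110.5 ± 4.15, mean signal ± SD, n = 2 each), on the scale log2(signal + 9.96) that every fold and log2 difference here uses. The labels do not say which bases Cre removes, and a probe set outside them would not check the deletion. Arrays that share a number were closer to each other (r = 0.971 and 0.977 over log2 signals of the tested probe sets) than arrays that share a genotype (r = 0.918 and 0.920). Differences between genotypes are therefore given within each number as well as over all 4 arrays. The cells carried fibroblast transcripts: 10 of 11 fibroblast markers with a probe set were in the brighter 50%, where 10714 of 18193 genes were. The same held for 0 of 4 endothelial, 1 of 4 macrophage, 1 of 4 epithelial, 1 of 3 oligodendrocyte precursor, 1 of 2 adipocyte and 6 of 7 pericyte and smooth muscle markers.

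Most PDGF genes read lower without PA1, and the 2 ligand genes with the smallest differences read higher. Read through the brightest probe set of each gene, 5 of 7 were lower at both array numbers (Pdgfra, Pdgfrb, Pdgfrl, Pdgfb and Pdgfd), where 29.3% of the 10714 tested genes were, and 2 were higher at both (Pdgfa and Pdgfc), where 33.9% were. Over all 15 probe sets, 10 were lower at both numbers, 4 were higher at both and 1 went opposite ways. The median log2 difference of the 7 genes was -0.77, beside 0.024 over all tested genes. Values of the PA1 -/- arrays lay wholly below those of the PA1 +/+ arrays for 4 genes (Pdgfra, Pdgfrb, Pdgfb and Pdgfd), as they did for 11.3% of tested genes. These counts come from the contrast that was known when the genes were chosen, and nothing is read from them. Over all tested genes, limma with genotype as the only term called 0% at an adjusted p under 0.05, and 2.16% had an unadjusted p under 0.05. Counts of calls with the array number as a block are given under the dependence on the processing.

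**Figure D1:**
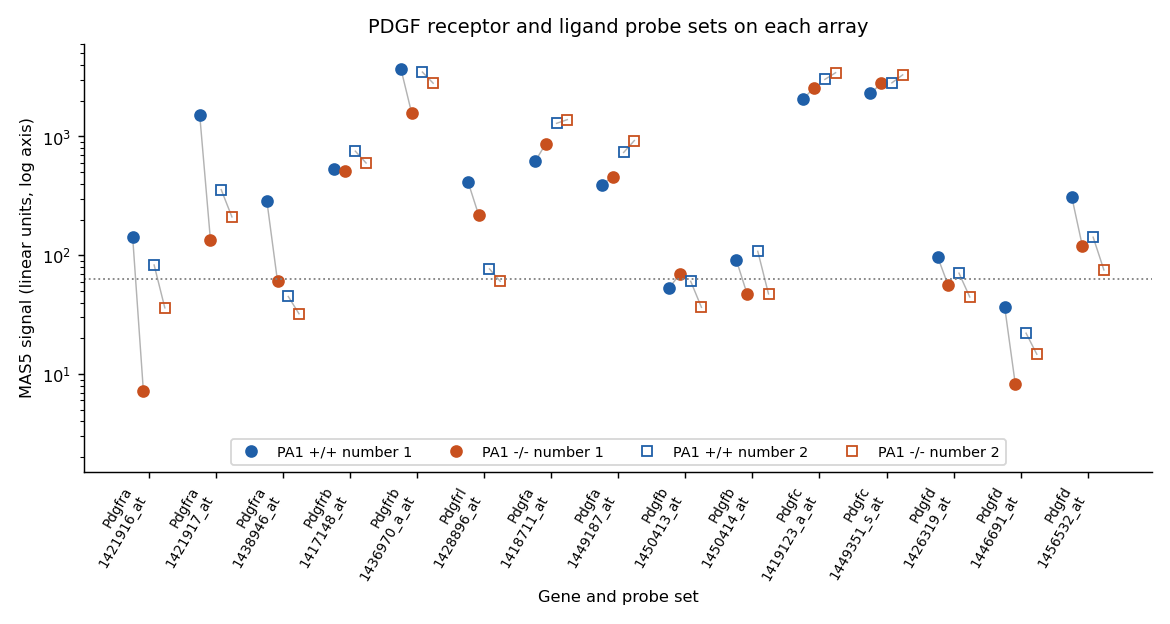
MAS5 signal (log axis) of the 15 PDGF probe sets on each of the 4 arrays, blue for PA1 +/+ and orange for PA1 -/-, filled circles for number 1 and open squares for number 2, with grey lines joining arrays of the same number and a dotted line near the signal of 62.8 at the filter on dim probe sets. All 3 Pdgfra probe sets show their highest point on the PA1 +/+ array numbered 1, while the 4 Pdgfa and Pdgfc probe sets sit slightly higher in PA1 -/- at each number.

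Pdgfra, which encodes the alpha receptor and is widely used as a marker of fibroblasts and their progenitors, had the largest difference of the 7. Its brightest probe set read 1515 and 357 on the PA1 +/+ arrays numbered 1 and 2, and 134 and 210.3 on the PA1 -/- arrays. The PA1 +/+ array numbered 1 stood far above the other 3, and both PA1 -/- arrays lay below both PA1 +/+ arrays. The log2 difference was -2.07 (SE 1.07), that is -3.41 at number 1 and -0.74 at number 2, or 10.6-fold and 1.67-fold lower. Without the PA1 +/+ array numbered 1 the difference was -1.05, and without the one numbered 2 it was -3.10.

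The other probe sets of Pdgfra differed in the same direction at both numbers. The one designed to the same transcript accession, which was too dim to be tested, read 143 and 82.9 in PA1 +/+ and 7.21 and 36.1 in PA1 -/- cells, a difference of -2.08. The third read 289 and 45.0 in PA1 +/+ and 60.4 and 32.2 in PA1 -/- cells, a difference of -1.23, and here the genotypes overlapped because the PA1 +/+ array numbered 2 lay below the PA1 -/- array numbered 1. In PA1 +/+ cells all 3 probe sets were higher on the array numbered 1, by 1.64-fold, 4.15-fold and 5.44-fold. In PA1 -/- cells the numbers had no common order, with 2 probe sets higher at number 2 and 1 higher at number 1.

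Because Pdgfra carries the largest difference, the 250 bases before its start site in RefSeq (GRCm38.p6, chr5:75152001-75152250, plus strand) are shown, with matches to 5 promoter motifs in capitals. The motifs, searched on both strands, were the TATA box TATAAA, the CCAAT box CCAAT, the GC box GGGCGG, the C/EBP-type motif TTGCNNAA and the AP-1-type TGANTCA.
Pdgfra: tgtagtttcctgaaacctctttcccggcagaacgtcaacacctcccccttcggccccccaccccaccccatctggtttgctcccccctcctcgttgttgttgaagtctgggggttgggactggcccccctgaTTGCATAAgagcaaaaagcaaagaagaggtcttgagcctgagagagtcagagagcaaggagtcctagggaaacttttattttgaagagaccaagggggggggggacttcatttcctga
The window held 1 match, to the C/EBP-type motif, which begins 118 bases before the start site. Of 32851 promoter windows of the same length, 9.56% held that motif, 12.4% the TATA box, 33.8% the CCAAT box, 32.7% the GC box and 6.75% the AP-1-type motif. RefSeq also has a Pdgfra transcript that begins further upstream, so the window lies within the gene's full span. A match is a description of letters and not of binding.

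Pdgfrb, the gene of the beta receptor, differed less, and its 2 probe sets did not give one answer. The brighter read 3694 and 3482 in PA1 +/+ and 1571 and 2807 in PA1 -/- cells. Both PA1 -/- arrays were lower, the one numbered 1 by far the most, for a difference of -0.77 (SE 0.42; -1.23 at number 1 and -0.31 at number 2). The other probe set read 530.1 and 752 against 517 and 598, so the genotypes overlapped and the difference was -0.18 (SE 0.27). At number 2 the probe sets gave nearly the same difference (-0.31 and -0.33), and at number 1 they did not (-1.23 and -0.035). Without the PA1 -/- array numbered 1 the difference of the brighter probe set was -0.35.

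Pdgfrl encodes a receptor-like protein that resembles the ligand-binding part of the receptors and has no kinase. It read 415 and 76.8 in PA1 +/+ and 217 and 60.5 in PA1 -/- cells. Both arrays numbered 1 were above both arrays numbered 2, and the genotypes overlapped. The arrays numbered 1 were 4.90-fold higher than those numbered 2 in PA1 +/+ and 3.22-fold higher in PA1 -/- cells, while PA1 -/- was 1.87-fold lower at number 1 and 1.23-fold lower at number 2. The mean difference of -0.60 had an SE of 1.42 and turned to 0.54 without the PA1 +/+ array numbered 1 and to 0.24 without the PA1 -/- array numbered 2.

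Among the ligands, Pdgfd and Pdgfb had the largest differences, and their order changed with the probe sets and arrays used. The brightest Pdgfd probe set read 312 and 142 in PA1 +/+ and 119 and 75.3 in PA1 -/- cells, so that each PA1 -/- array was below both PA1 +/+ arrays. The difference was -1.08 (SE 0.62), with -1.32 at number 1 and -0.83 at number 2, and leaving out single arrays gave -1.62 to -0.54, the latter without the PA1 +/+ array numbered 1. A dimmer probe set read 97.3 and 70.7 against 55.8 and 44.6 (-0.64), and one too dim to be tested read 37.0 and 22.1 against 8.18 and 14.7 (-0.88). All 3 Pdgfd probe sets were thus lower in PA1 -/- cells at both numbers, with no overlap between genotypes.

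Pdgfb, the ligand gene whose product binds either receptor, was dim. Its brighter probe set read 91.3 and 108 in PA1 +/+ and 47.4 and 47.3 in PA1 -/- cells, a difference of -0.93 (SE 0.11). This was the PDGF gene whose arrays of one genotype lay closest together, and the differences at the numbers were -0.82 and -1.05. The second probe set, too dim to be tested, read 53.3 and 60.4 against 69.6 and 36.5 and went opposite ways at the numbers (0.33 and -0.60). The signal of the brighter probe set in PA1 -/- cells, near 47.3, lies under the boundary of 62.8 that separates tested from untested probe sets. Its log2 difference was -1.05 with a pseudocount of 1 and -0.55 with one at the median signal.

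Pdgfa and Pdgfc, the genes of the ligands that act through the alpha receptor, read slightly higher in PA1 -/- cells at each number. Pdgfa read 617 and 1289 in PA1 +/+ and 869 and 1385 in PA1 -/- cells through its brighter probe set, and 394 and 733 against 460.2 and 924 through the other. The arrays numbered 2 were the higher in both genotypes, 2.07-fold in PA1 +/+ and 1.59-fold in PA1 -/- cells by the brighter probe set, and the genotypes overlapped. Its genotype difference was 0.30 (SE 0.62), or 0.27 by the second probe set, and it was -0.23 without the PA1 +/+ array numbered 1 and -0.038 without the PA1 -/- array numbered 2. Pdgfc read 2301 and 2827 against 2792 and 3299, a difference of 0.25 (SE 0.19), with 0.28 at number 1 and 0.22 at number 2. A second Pdgfc probe set read 2073 and 3020.4 against 2578 and 3438 and also differed by 0.25. The genotypes overlapped for Pdgfc as well. Without the PA1 +/+ array numbered 1 the second Pdgfc probe set became the brighter, and its difference was -0.021. That value thus reflects a change of probe set as well as of arrays.

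The sequences before the start sites of 3 ligand genes are shown because Pdgfd read lower and Pdgfa and Pdgfc higher at both numbers. They come from RefSeq (GRCm38.p6), with the same motifs in capitals: Pdgfd from chr9:6168236-6168362 on the plus strand, stopped where another Pdgfd transcript begins; Pdgfa from chr5:138994945-138995194 on the minus strand, the more upstream of 2 start sites in the promoter table, although the gene's RefSeq span begins further upstream still; Pdgfc from chr3:81036166-81036415 on the plus strand.
Pdgfd: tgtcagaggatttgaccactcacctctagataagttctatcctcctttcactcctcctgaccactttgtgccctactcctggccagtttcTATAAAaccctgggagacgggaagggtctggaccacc
Pdgfa: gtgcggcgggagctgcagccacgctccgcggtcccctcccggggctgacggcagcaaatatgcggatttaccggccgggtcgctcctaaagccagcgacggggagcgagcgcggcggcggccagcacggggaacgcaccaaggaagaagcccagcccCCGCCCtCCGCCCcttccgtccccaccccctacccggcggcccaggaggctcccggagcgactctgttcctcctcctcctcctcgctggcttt
Pdgfc: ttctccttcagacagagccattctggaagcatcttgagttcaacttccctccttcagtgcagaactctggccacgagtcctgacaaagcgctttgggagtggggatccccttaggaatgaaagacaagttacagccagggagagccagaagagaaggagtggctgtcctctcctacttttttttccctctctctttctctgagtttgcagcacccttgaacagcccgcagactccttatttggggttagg
The Pdgfd window held 1 TATA box, 160 bases before the listed start site. Pdgfa had 2 GC boxes, beginning 93 and 86 bases before its start site and read on the opposite strand, and 72.4% of its window was G or C, against 54.4% for Pdgfra, 53.6% for Pdgfd over 250 bases and 50.8% for Pdgfc. The Pdgfc window held none of the 5 motifs, and the C/EBP-type motif was found in none of these 3 windows.

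**Figure D2:**
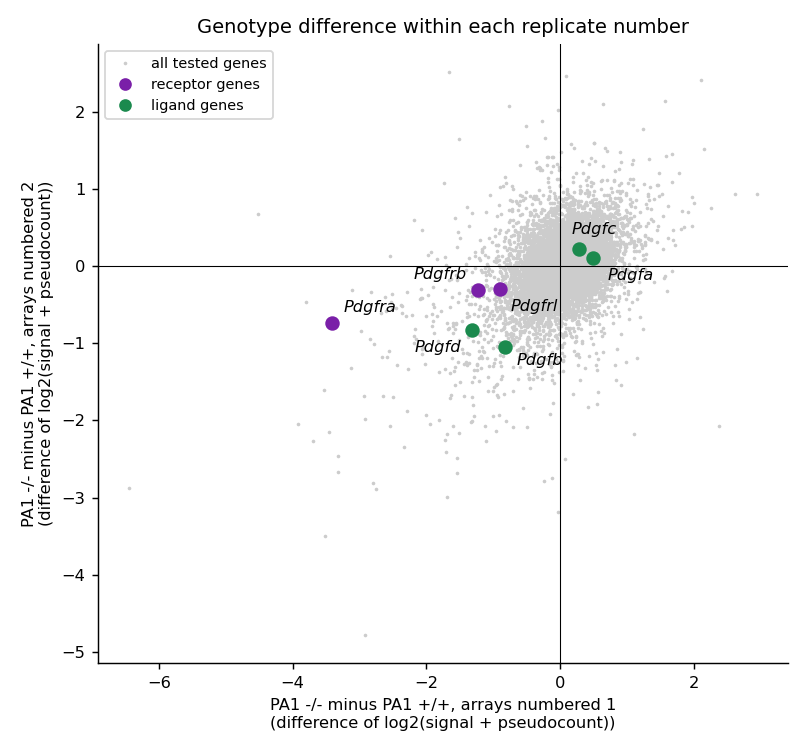
Difference of log2(signal + 9.96) between PA1 -/- and PA1 +/+ at array number 1 (horizontal) and number 2 (vertical) for all 10714 tested genes (grey) and the 7 PDGF genes, purple for receptor genes and green for ligand genes. Pdgfra lies far to the left at -3.41 but only at -0.74 on the vertical axis, Pdgfb and Pdgfd lie near -1 on both, and Pdgfa and Pdgfc lie just above 0 on both.

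The genotype difference also changed from one array number to the other. At number 1, 3 of 7 genes were at least 2-fold lower in PA1 -/- cells (Pdgfra, Pdgfrb and Pdgfd), where 2.47% of all tested genes were, and at number 2 only Pdgfb was, where 2.13% were. No PDGF gene was at least 2-fold lower at both numbers, a pattern shown by 0.831% of tested genes. By the brightest probe sets, the differences at the numbers lay 2.67 log2 units apart for Pdgfra, 0.92 for Pdgfrb and 0.61 for Pdgfrl, and 0.49 for Pdgfd, 0.38 for Pdgfa, 0.23 for Pdgfb and 0.056 for Pdgfc. Other probe sets gave other gaps, such as 0.29 for Pdgfrb and, among those too dim to be tested, 0.99 for Pdgfd and 0.93 for Pdgfb. With 1 array per genotype at each number, these gaps have no replicate of their own and were not tested.

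Arrays of the same genotype also differed from each other. In PA1 +/+ cells the arrays lay at least 1 log2 unit apart for 4 of the 7 genes, namely Pdgfra, Pdgfrl and Pdgfd, which were higher at number 1, and Pdgfa, which was higher at number 2. The same held for 12.6% of all tested genes. In PA1 -/- cells it held for Pdgfrl, 1 gene of 7, against 12.9% of tested genes. Of the 10 tested fibroblast markers, 7 were lower at both numbers, where 29.3% of tested genes were, 0 were higher at both and 3 went opposite ways, with a median difference of -0.39 with 0 past limma after adjustment and 1 at an unadjusted p under 0.05. Lum was too dim to be tested, and the summed signals of the 10 were 88922 and 107763 in PA1 +/+ and 80333 and 88166 in PA1 -/- cells. Of 6 tested pericyte and smooth muscle markers, 2 were lower and 1 higher at both numbers, where 29.3% and 33.9% of tested genes were. The other 3 went opposite ways, and 3 of 6 had a mean difference below 0. Their summed signals were 19492 and 22915 against 22741 and 21837. Most of this was Acta2, at 16526 and 20863 against 17908 and 20147. The part of either in the PDGF differences was not tested. In bulk RNA, fewer cells that express a gene and less of its RNA per cell cannot be told apart.

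Genes whose products process or bind PDGF ligands mostly read lower. Of 8 such genes 5 were tested, with a median difference of -0.22. At both numbers 4 were lower and 1 higher, where 29.3% and 33.9% of all tested genes were. Nrp1, which encodes neuropilin-1, a co-receptor that can bind PDGF, read 2714 and 4023 in PA1 +/+ and 2033 and 2847 in PA1 -/- cells (-0.46), and its other tested probe sets gave -0.32, -0.59 and -0.43. Plat encodes tissue plasminogen activator, the protease known to activate PDGF-C, and differed by -0.44. Furin, a convertase that trims PDGF-A and PDGF-B, was the 1 higher gene at 0.44. Sparc, whose product binds PDGF in the matrix, and Lrp1, a co-receptor of the beta receptor, each differed by -0.22. Other tested probe sets gave -0.048 and -0.45 for Sparc and -0.76 for Lrp1. None of the 5 passed limma at an adjusted or unadjusted p under 0.05.

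Genes of signalling proteins that act close to the receptors (receptor-proximal signalling) leaned the other way. Of 23 tested, 12 were higher and 5 lower at both numbers, where 33.9% and 29.3% of all tested genes were. The median of the 23 was 0.31 beside 0.024 over all tested genes. None of the 23 passed limma at an adjusted or unadjusted p under 0.05. Plcg1, phospholipase C gamma-1, read 900.0 and 898 in PA1 +/+ and 1286 and 1230.4 in PA1 -/- cells (0.48, limma adjusted p = 1). It was higher without overlap between genotypes, as were 15% of all tested genes. Src, the kinase that both receptors recruit, read 473 and 528 against 764 and 643 (0.48, and 0.89 by a second probe set). Ptpn11, the phosphatase SHP2, differed by 0.42, the adaptor genes Crk and Nck2 by 0.42 each, and the lipid kinase gene Pik3cb by 0.69, of which 1.11 was at number 1 and 0.28 at number 2. Rasa1, a brake on Ras, was lower by a difference of -0.45, but its arrays numbered 2 were several times brighter than those numbered 1 in both genotypes (894 and 4776 in PA1 +/+, 623 and 3670 in PA1 -/-).

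Attenuators of receptor signalling had a median of 0.031 over 13 tested genes. Of these, 6 were higher and 4 lower at both numbers, where 33.9% and 29.3% of all tested genes were. Socs3, a feedback inhibitor of cytokine receptor signalling, read 744 and 621 in PA1 +/+ and 324 and 266 in PA1 -/- cells. Both PA1 -/- arrays were below both PA1 +/+ arrays, as for 11.3% of all tested genes. Socs3 differed by -1.17 and -1.19 at the numbers, and its other probe sets gave -1.04 and -0.88. Its limma unadjusted p was 0.00846 and its adjusted p was 1. Spry1, a feedback inhibitor of receptor tyrosine kinases that PDGF and FGF induce, read 580.3 and 186 against 132 and 84.9 (-1.55, adjusted p = 1). Dusp6, the phosphatase that dampens ERK, was higher at 0.63, and the ubiquitin ligase gene Cblb differed by 0.39. Spry2 and Spry4 differed by 0.031 and -0.19, so the Sprouty genes did not share one size of difference. None of the 13 passed after adjustment, and Socs3 was the 1 gene of 13 with an unadjusted p under 0.05, where 2.16% of tested genes were.

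Genes that PDGF is known to induce in fibroblasts split. Of 22 tested, 9 were lower and 6 higher at both numbers, where 29.3% and 33.9% of all tested genes were. The median was -0.14, and 0 passed limma after adjustment. An unadjusted limma p under 0.05 was found for 3 lower genes (Egr2, Ccl7 and Nr4a1), and for 2.16% of all tested genes. Egr2, an early growth response factor, read 186 and 139 in PA1 +/+ and 61.9 and 36.1 in PA1 -/- cells (-1.57). Its limma unadjusted p was 0.0105 and its adjusted p was 1. Ccl7, a monocyte chemokine, read 187 and 172 against 91.9 and 31.6 (-1.54). Fos, the classical immediate-early gene, read 1479.7 and 462 against 674 and 102 (-1.60), lower in PA1 -/- cells at each number but overlapping between genotypes. On the other side, Fosl1 differed by 0.64, Plaur, the urokinase receptor gene, by 0.60, and Srf by 0.45. Myc differed by 0.22, Jun by 0.13 and Egr1 by -0.041, while a second Jun probe set gave 0.69.

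Receptors and ligands of the same or related families varied widely. Of 18 tested, 9 were lower and 6 higher at both numbers, where 29.3% and 33.9% of all tested genes were. The median was -0.089, and 0 of the 18 passed limma at an adjusted or unadjusted p under 0.05. Vegfd, a ligand of the VEGF branch of the PDGF superfamily, read 964 and 857 in PA1 +/+ and 177 and 603 in PA1 -/- cells (-1.44; -2.38 at number 1 and -0.50 at number 2), and its other probe sets gave -1.67 and -1.49. Kitl, the ligand of Kit, read 761 and 158 against 115 and 117 (-1.51). Pgf, placental growth factor, differed by -1.26 and Egfr by -1.18, though other Egfr probe sets gave -0.48 to -0.16. Flt4, the VEGF-C and VEGF-D receptor gene, differed by 1.23, Axl by 0.77, the class III receptor gene Csf1r by 0.72 and its ligand gene Csf1 by 0.69. Axl and Csf1 differed mostly at number 1 (1.27 and 1.24), with 0.27 and 0.14 at number 2. Other tested probe sets gave 0.40 for Csf1r and 0.36 to 0.67 for Csf1. Kit and Flt3, the other class III receptor genes, were too dim to be tested.

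**Figure D3:**
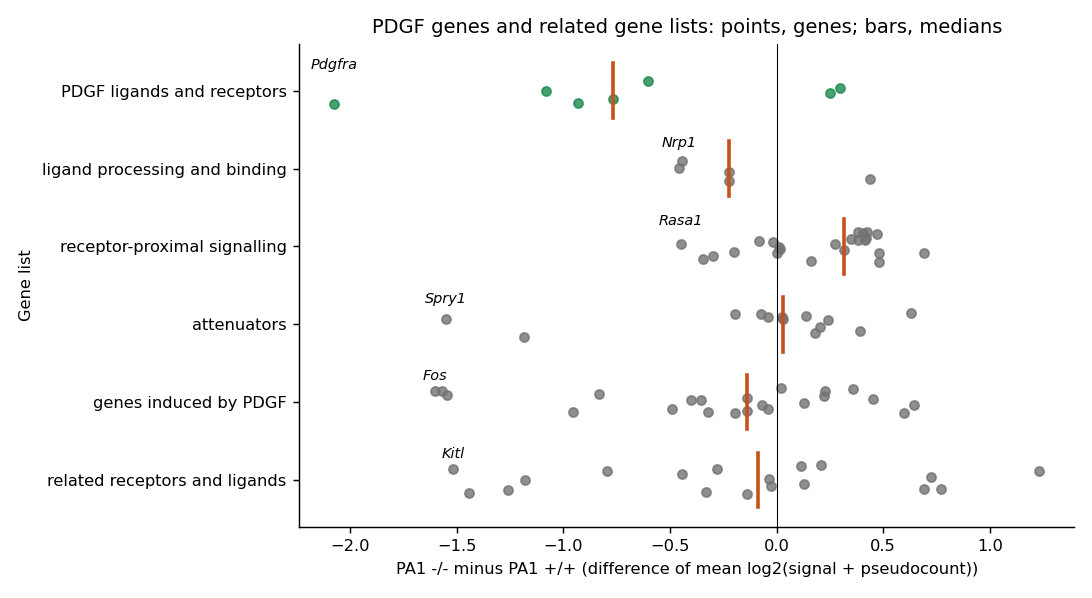
Genotype difference (mean log2(signal + 9.96) of PA1 -/- minus PA1 +/+) of each tested gene in the PDGF family and 5 related lists, with the median of each list as an orange bar and the lowest gene of each list named. The PDGF genes have a median of -0.77, and the medians of the other lists run from -0.22 for ligand processing and binding to 0.31 for receptor-proximal signalling.

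The genes whose values over the 4 arrays were most like those of a PDGF gene were found by the distance between log2 values centred on each gene's own mean, over 6 PDGF genes whose range was at least 1 log2 unit. The 5 nearest to Pdgfra were Col14a1 (distance 0.69), Kitl (0.71), Bmp4 (0.73), Cemip (0.77) and Sorcs2 (0.95). Bmp4, the bone morphogenetic protein 4 gene, read 2814 and 1303 in PA1 +/+ and 460 and 569 in PA1 -/- cells. Like Pdgfra, all 5 were highest on the PA1 +/+ array numbered 1, with the array of that genotype numbered 2 next and both PA1 -/- arrays lowest. No gene came as close to Pdgfra as those nearest to the other PDGF genes, whose smallest distances were 0.057 to 0.21. This distance grows with a gene's range, which was 3.41 log2 units for Pdgfra and 1.05 to 2.59 for the others. By correlation over the 4 arrays Col14a1 reached r = 0.996 with Pdgfra, and its next nearest genes 0.929 to 0.974. The nearest gene of each other PDGF gene reached 0.991 to 0.998.

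Those nearest to Pdgfrb were Fam13c (0.12), Chaserr (0.14), Sema4b (0.15), Zfp383 (0.15) and Mgll (0.16), which share its low value on the PA1 -/- array numbered 1. Pdgfrl was nearest to Xaf1 (0.17), Grtp1 (0.22) and Robo1 (0.25), then Cox6b2 and Bckdhb, all of them higher on both arrays numbered 1. Pdgfb was nearest to Irgm1 (0.11), Col6a1 (0.12), Tcf4 (0.16), Pcsk6 (0.17) and Dgka (0.19), whose arrays of one genotype lay close together. Around Pdgfd stood Cdon (0.21), Fbln5 (0.25), Pkdcc (0.25), Itgb3bp (0.28) and Fam43a (0.28), and around Pdgfa stood Mindy4 (0.057), Smo (0.060), Lsm7 (0.064), Cdr2 (0.082) and Myo5a (0.084). With 4 arrays and 10714 genes, close profiles occur for many genes, and these distances are a description.

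**Figure D4:**
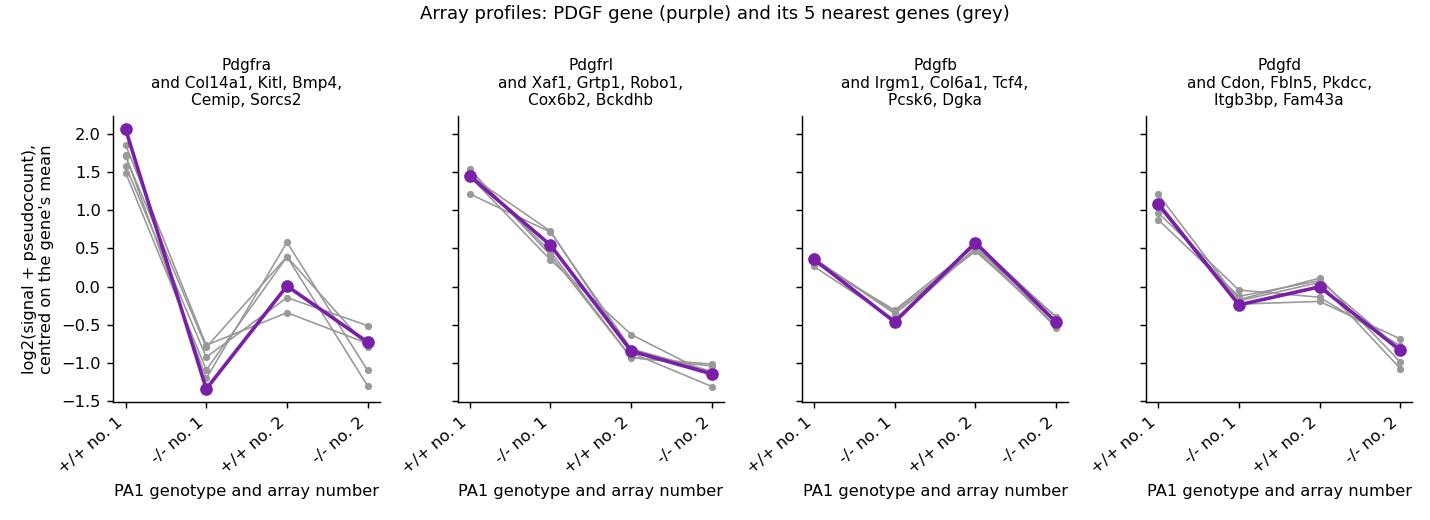
Values of log2(signal + 9.96) on the 4 arrays, centred on each gene's own mean, for Pdgfra, Pdgfrl, Pdgfb and Pdgfd (purple) and the 5 genes nearest to each (grey). Pdgfra drops steeply from PA1 +/+ to PA1 -/- at number 1, Pdgfrl is set mainly by the array number, and Pdgfb alternates with genotype at both numbers.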

How the data were processed

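Biotin-labelled total RNA was hybridised to 4 arrays (labels). The deposited intensity values are linear MAS5 signals, per the submitters' processing notes; its version, its scaling target and any genome build were not given in the sources used here. Signals had a trimmed mean of 500.0 on every array, so differences are relative to each array's average. Control probe sets (64) were left out. Platform annotation named 1 gene for 34945 probe sets, several for 932 and none for 9160, and only the first were used; 34741 matched RefSeq genes (GRCm38.p6). Values were analysed as log2(signal + 9.96), the 20th percentile of all signals, which understates changes of dim genes. The upper 50% by mean, 22519 probe sets, were tested with limma 3.58.1 in R 4.3.3 (eBayes with trend, genotype only, 2 residual degrees of freedom, Benjamini-Hochberg adjustment, 2-sided), each gene read through its brightest. An exact test of 2 against 2 arrays cannot give a p below 0.333. Named in each related list were the 3 genes with the largest difference of one sign at both numbers, and members with a role given; likeness used the nearest 5 genes. Members and lists were chosen with earlier results of these data known. The fit was tested on simulated data. Detection calls were not used. Precision is limited by the number of arrays. Other processing settings were tried, and list genes without a single-gene probe set were not analysed here.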

Additional observations from a re-analysis of the deposited data

How the results depend on the processing

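With the arrays' replicate number as a block, 447 probe sets passed limma's adjusted p threshold where 0 passed without it, and 0 passed under each other setting and without any 1 array. With the block, which leaves 1 residual degree of freedom, 1.82% of tested genes passed as lower and 0.663% as higher. They included 2 of 7 PDGF genes (Pdgfra and Pdgfd, lower), from which nothing is read because the contrast chose them, 2 of 13 attenuators (Socs3 and Spry1, lower), 4 of 22 PDGF-induced genes (Fos, Egr2, Ccl7 and Nr4a1, lower), 3 of 18 related receptors and ligands (Pgf and Egfr lower, Flt4 higher) and 2 of 10 fibroblast markers (Postn and Dcn, lower), and no tested gene of the other related lists. Deviations of same-numbered arrays from their group means correlated at 0.805, but with 2 pairs the numbers are not shown to pair the samples. Keeping the upper 30% left Pdgfrl, Pdgfb and Pdgfd untested, so that 2 PDGF genes were lower at both numbers and 2 had a mean difference below 0, in place of 5. The count lower at both numbers was 5 and the count higher was 2 under every other setting that keeps all arrays, whereas leaving out an array leaves only 1 pair. The count below 0, added after seeing the data, was 5 to 6 without single arrays. Pdgfb gave -1.05 with a pseudocount of 1 and -0.55 with one at the median signal.

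Without single arrays the differences ran from -3.10 to -1.05 for Pdgfra, -1.19 to -0.35 for Pdgfrb, -1.75 to 0.54 for Pdgfrl, -0.23 to 0.82 for Pdgfa, -1.05 to -0.82 for Pdgfb, -0.021 to 0.46 for Pdgfc and -1.62 to -0.54 for Pdgfd. Each fit read the probe set that was brightest on the arrays kept, and both ends of the Pdgfc range come from its second probe set. The Pdgfc probe set used elsewhere gave 0.40 without the PA1 +/+ array numbered 2 and 0.13 without the PA1 -/- array numbered 2. Medians ran from -0.28 to -0.028 for ligand processing, 0.17 to 0.23 for receptor-proximal signalling, -0.12 to 0.28 for attenuators, -0.28 to 0.097 for PDGF-induced genes and -0.30 to 0.14 for related receptors and ligands. The attenuator median was 0.022 with quantile normalization, 0.081 with median scaling, 0.035 with a pseudocount at the median and 0.085 with the stricter filter. Averaging a gene's tested probe sets gave -0.86 for Pdgfd, beside -0.93 for Pdgfb, which has a single tested probe set and so nothing to average. It gave medians of -0.44 for ligand processing, 0.23 for receptor-proximal signalling and 0.085 for attenuators. The stricter filter gave -0.054 for PDGF-induced genes. The causes were not tested.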
